A study of Mus musculus with 10 samples.

Results

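RNA levels were described in 5 pigmented melanomas of C57BL6 mice, within a series of 10 tumor arrays whose other 5, labelled MPNST-like (amelanotic), are not compared here. The mice carried the genotype BrafV600E-CDK4R24C, which joins an inducible oncogenic Braf allele to a Cdk4 allele whose kinase resists the p16 inhibitor. Tamoxifen was put on the skin for 4 days to switch on the V600E allele, and 1 topical dose of the carcinogen DMBA followed, so every tumor shares both treatments. The tumors were excised from skin, frozen in liquid nitrogen and hybridized as biotinylated cRNA to single-colour Illumina MouseWG-6 bead arrays, 1 array per tumor. The labels name neither the Cre driver nor its promoter, give no age, and do not say whether the tumors came from separate mice. A difference between tumors is therefore one between single samples, and its technical part is unknown. The tumors are called pigmented 1 to pigmented 5.

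A probe was kept when its detection p-value, the chance of such a signal among the array's negative controls, was under 0.05 on at least 3 of the 5 arrays. This kept 17941 of 45281 probes, and 9985 of the 19057 genes named by the array were measured, each by its brightest probe. Of these, 8407 were detected on all 5 arrays, 857 on 4 and 721 on 3. Just inside the rule, the 1428 named probes detected on 3 arrays had a median mean level of 4.57, and just outside it the 1829 detected on 2 arrays had 4.44, so the rule cuts through probes close to background. Levels are background-corrected, quantile-normalized log2 intensities, on which background lies at about 4 and a difference of 1 is a 2-fold change. The arrays held 17908 to 20120 detected probes each, with median intensities of 79.4 to 89.0, and correlated with each other at r = 0.906 to 0.968 across the 9985 genes. Pigmented 2 and pigmented 4 stood farthest from the rest, with mean correlations of 0.918 and 0.919, against 0.937 to 0.943 for the other tumors.

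Melanocytes make melanin inside melanosomes, organelles related to lysosomes, with the enzymes tyrosinase, Tyrp1 and Dct on a scaffold of Pmel fibrils. The transcription factor Mitf, itself switched on by Sox10, drives many of these genes. A skin tumor can also hold epidermis, hair follicles, fat, the thin striated muscle under mouse skin, vessels and blood cells. The array reads the RNA of all of them at once, and in such bulk samples fewer cells of a type and less RNA per cell cannot be told apart.

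The melanin genes Pmel, Tyrp1 and Dct were bright in every tumor, and by their brightest probes they differed less between tumors than the median gene, which for Pmel and Tyrp1 a second probe did not show. Pmel, the fibril protein of the melanosome, had log2 intensities of 14.53, 13.78, 14.38, 14.42 and 14.53 in pigmented 1 to 5. Tyrp1, an enzyme of melanin synthesis, had 13.81, 13.88, 14.13, 13.80 and 13.75. Dct, the dopachrome tautomerase, had 14.09, 14.17, 14.46, 14.35 and 14.19. All 3 probes were near the top of the scale in every tumor, and the label pigmented was thus met by its defining markers. Their SDs over the 5 tumors were 0.31, 0.15 and 0.15, below the median SD of 0.347 over all genes. The values normalized by the authors gave larger SDs, 0.49 for Dct and 0.42 for Tyrp1, and the SD of Pmel without pigmented 2 was 0.0886. A second probe gave the same lowest tumor for Pmel (13.04 in pigmented 2, 13.72 to 14.02 elsewhere) and the same highest tumor for Dct (14.35 in pigmented 3). For Tyrp1 it did not, with 12.86, 13.33, 12.85, 12.10 and 12.33, and the remaining Tyrp1 probe had 12.65, 13.18, 12.46, 11.94 and 12.11. The SDs of the second probes were 0.41 for Pmel and 0.49 for Tyrp1, above that of the median gene, and 0.17 for Dct. Quantile normalization gives every array the same set of values, which limits how far the brightest probes can differ.

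**Figure D1:**
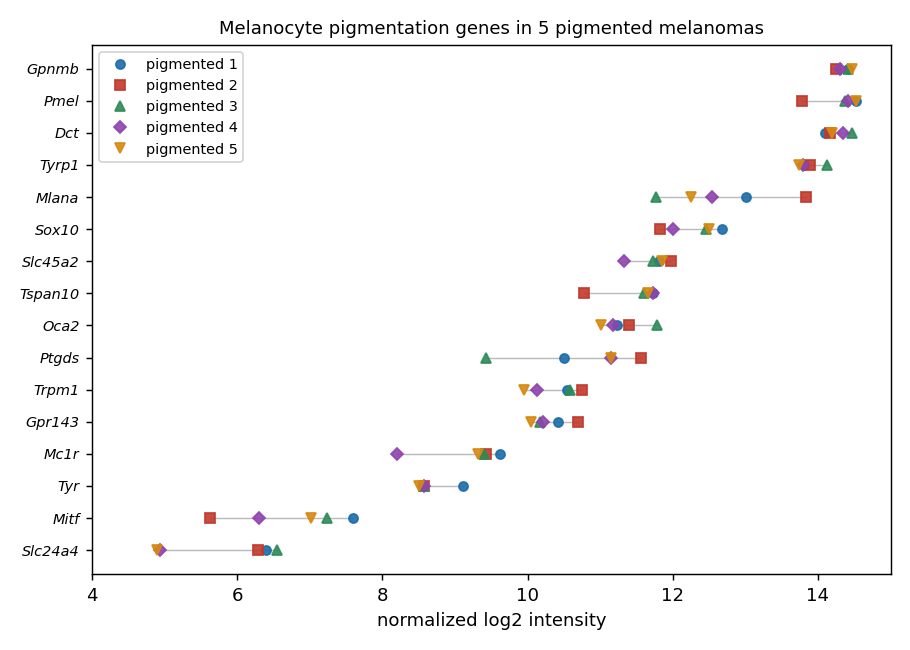
Normalized log2 intensity (x axis) of the 16 measured genes of the melanocyte pigmentation list (rows, ordered by mean level) in the 5 pigmented tumors (1 symbol per tumor, a grey line from lowest to highest). Gpnmb, Pmel, Dct and Tyrp1 lie near 14 in every tumor, while Mlana, Ptgds, Mitf and Slc24a4 spread most.

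Of the 17 listed pigmentation genes, 16 were measured and Slc24a5 fell below the detection rule. None of the 16 had an SD of 1 or more, against 5.32% of all genes, and their median SD of 0.324 lay near that of all genes. The 4 widest members ran in different directions. Mlana, a melanosomal membrane protein, had 13.01, 13.83, 11.77, 12.54 and 12.25, highest in pigmented 2 and lowest in pigmented 3. Mitf, by the probe that was detected, had 7.60, 5.63, 7.24, 6.30 and 7.01, lowest in the same pigmented 2 in which Mlana was highest. Ptgds, a prostaglandin D synthase of melanocytes, was lowest in pigmented 3 at 9.42, with 10.50 to 11.56 elsewhere. Slc24a4, a cation exchanger, separated the tumors into 6.39, 6.29 and 6.55 in pigmented 1 to 3 and 4.93 and 4.89 in pigmented 4 and 5.

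Sox10 was at 12.68, 11.83, 12.46, 12.00 and 12.50, with its lowest values in pigmented 2 and 4, where Mitf was lowest too. Mc1r, the melanocortin receptor that favours black pigment, had 8.21 in pigmented 4 and 9.31 to 9.62 in the others. Tyr, the rate-limiting tyrosinase, had 9.11 in pigmented 1 and 8.50 to 8.58 in the others. The transporters Oca2 and Slc45a2 and the receptor Gpr143 ranged over 0.77, 0.65 and 0.64 log2 units. Taking the whole list, its mean centred level, the mean of its members' deviations from their 5-tumor means, was 0.20, 0.04, 0.03, -0.19 and -0.07 in pigmented 1 to 5. This spread of 0.40 was among the narrow ones of the 29 lists with at least 4 measured genes, and it was 0.71 under median scaling.

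The genes that sort cargo to melanosomes and move them varied about as much as the median gene, with a median SD of 0.372, but in no common direction. All 20 listed genes were measured, none with an SD of 1 or more, and the list level spanned 0.16, or 0.53 under median scaling. Dtnbp1, a subunit of the BLOC-1 sorting complex, stayed between 11.02 and 11.26, and the tetraspanin Cd63 between 13.87 and 14.17. The widest member was Bloc1s1, another BLOC-1 subunit, at 7.92 in pigmented 2 and 9.08 to 9.90 in the others. Rab27a, the GTPase that tethers melanosomes to the motor myosin Va, had 11.90 in pigmented 1 and 10.66 to 11.36 elsewhere. The members did not share a highest tumor: pigmented 2, 3 and 5 held 5 of the 20 highest values each, where they held 25.2%, 15.5% and 24.0% of those of all genes.

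The start regions of bright pigment genes and of highly variable muscle genes of these tumors are shown for their short factor-binding letters. The first pair are the melanin enzymes Tyrp1 and Dct, and the second pair are Acta1 and Mylpf, skeletal muscle genes described further on. Sequences are RefSeq promoters of build GRCm38.p6, from 250 bases before to 50 after the gene start, 5′ to 3′ on the gene's strand. Capitals in the first pair mark CATGTG, the core of the M-box read by Mitf, on either strand, and in the second pair CAGCTG, an E-box of the kind read by muscle factors such as MyoD.
Tyrp1, chr4:80833963-80834262, plus strand: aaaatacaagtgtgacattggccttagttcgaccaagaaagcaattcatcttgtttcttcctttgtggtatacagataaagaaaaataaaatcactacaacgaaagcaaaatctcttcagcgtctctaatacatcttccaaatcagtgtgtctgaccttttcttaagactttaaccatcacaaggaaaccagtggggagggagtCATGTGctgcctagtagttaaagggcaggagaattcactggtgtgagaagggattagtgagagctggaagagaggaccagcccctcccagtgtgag
Dct, chr14:118052197-118052496, minus strand: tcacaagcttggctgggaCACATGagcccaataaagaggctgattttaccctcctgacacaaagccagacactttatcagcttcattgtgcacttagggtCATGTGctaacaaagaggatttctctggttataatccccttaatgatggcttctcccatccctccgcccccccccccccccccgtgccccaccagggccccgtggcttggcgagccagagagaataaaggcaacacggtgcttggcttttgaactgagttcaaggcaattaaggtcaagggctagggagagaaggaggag
Acta1, chr8:123894726-123895025, minus strand: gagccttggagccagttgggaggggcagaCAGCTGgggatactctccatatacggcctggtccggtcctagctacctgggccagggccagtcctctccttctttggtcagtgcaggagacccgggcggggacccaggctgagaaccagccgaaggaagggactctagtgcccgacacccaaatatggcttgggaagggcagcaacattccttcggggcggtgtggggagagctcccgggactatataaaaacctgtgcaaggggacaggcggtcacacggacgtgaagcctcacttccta
Mylpf, chr7:127211358-127211657, plus strand: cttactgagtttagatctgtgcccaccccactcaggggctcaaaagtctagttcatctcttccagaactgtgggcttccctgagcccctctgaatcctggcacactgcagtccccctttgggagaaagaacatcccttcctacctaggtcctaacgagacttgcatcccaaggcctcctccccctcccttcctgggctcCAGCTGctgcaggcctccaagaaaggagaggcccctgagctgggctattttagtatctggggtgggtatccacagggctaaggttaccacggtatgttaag
CATGTG began at position -46 of Tyrp1 and at -150 and, on the other strand, -232 of Dct. It was found in 7 of the 11 pigmentation promoters that had an entry (63.6%), in 0 of the 12 muscle promoters that had one, and in 14.2% of all 32851 promoters. CAGCTG, at -221 in Acta1 and -51 in Mylpf, was found in 6 of the 12 muscle promoters (50%), in 3 of the 11 pigmentation promoters (27.3%) and in 16.3% of all promoters. TATAAA was found in 4 of the 12 muscle promoters (33.3%), 1 of the 11 pigmentation promoters (9.09%) and 13.6% of all; in Acta1 it began at -7. In these 4 sequences no matches of different motifs overlapped, and a match describes letters only.

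The 30 brightest probes put melanosome, iron, ribosome and mitochondrial transcripts side by side. A probe's brightness depends on its sequence as well as on its RNA, so their order ranks probes and not amounts. Of the 30, 20 carried a gene symbol, for 17 genes, and 10 had none. Fth1, the iron-storing ferritin heavy chain, led with a mean of 14.40 ± 0.07 (SD, n = 5), and a second Fth1 probe was 13th. Gpnmb, a glycoprotein of melanosomes and lysosomes, followed with 14.37 ± 0.09, and Pmel was 4th. A dimmer second Gpnmb probe varied more, at 12.05, 12.84, 11.55, 11.41 and 11.36 (SD 0.62). It was highest in pigmented 2, where the first was lowest. The pigment and melanosome genes Gpnmb, Pmel, Dct (by 2 probes), Cd63 and Tyrp1 all stood among these 30.

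The other named bright probes were those of the ribosomal genes Rplp1, Rpl41, Rps2 and Rps29, the mitochondrially encoded CYTB and ND4, the cytokine Mif, the glutathione transferase Gstp1, the metal-binding Mt1, the lysosomal protease Ctsb and the ubiquitin copy Ubb-ps. The signal of Ubb-ps may include its near-identical parent gene, so its level is uncertain. Mt1 lay between 13.54 and 14.34, and Mif had 14.46, 13.89, 14.03, 13.87 and 14.23. Both were highest in pigmented 1 and lowest in pigmented 4. Between 29 and 30 of these probes stayed among the 30 brightest under every change of processing, and 26 to 29 when a tumor was left out.

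Blood transcripts were bright as well but less steady. Hbb-bs, an adult beta-globin, had 14.17, 14.23, 12.37, 13.56 and 13.93, and Hba-a1, an alpha-globin, had 14.21, 14.08, 12.42, 13.32 and 14.06. Both were lowest in pigmented 3. The globin genes have near-identical copies whose signals these probes may not separate.

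At the steady end, 78 of the 4204 genes that were detected on all arrays with a mean of at least 7.17 had an SD under 0.1. The 15 with the smallest SDs had 0.0373 to 0.0663. Polr2g, an RNA polymerase II subunit, had 9.74, 9.81, 9.72, 9.79 and 9.79. Echs1, an enzyme of mitochondrial fat oxidation, stayed between 8.72 and 8.85, and Atp6v1d, a proton pump subunit, between 10.63 and 10.77. Others among the 15 were the RNA polymerase I subunit Znrd1, the nuclear envelope protein Sun1, the peptidase Dpp3 and the heat-shock co-chaperone Dnajb1. Syt4, a synaptotagmin of vesicle release, lay between 13.65 and 13.82, and Vegfc, the growth factor of lymph vessels, between 7.51 and 7.67. The rest were Mrps30, a protein of the mitochondrial ribosome, Vps13b, Tmem242, Tm2d2, Dedd2 and Stard7. Where a second, dimmer probe was detected, it varied more. Its SD was 0.40 for Echs1, 0.36 for Syt4, 0.25 for Stard7, 0.19 for Dpp3 and Znrd1 and 0.16 for Sun1, none under 0.1.

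Both the number of such steady genes and which genes they were depended on the processing. It was 127 without background correction, and these included all 78. It was 25 in the values normalized by the authors and 11 under median scaling, and of the 78 these held 0 and 1. The genes named above are thus steady by their brightest probes under quantile normalization of these arrays, and not in the authors' values. With 1 tumor left out it lay between 126 and 246, the last without pigmented 2. Among the 29 lists, the cytosolic ribosome had the smallest median SD, 0.209 over 14 measured genes, with Rps2 between 13.76 and 13.97 and Rplp0 widest at 6.38 to 7.69. Oxidative phosphorylation had a list level spanning 0.29. Of its 15 genes, 1 reached an SD of 1. This gene, Ppargc1a, the co-activator of mitochondrial biogenesis, had 8.35, 4.83, 7.67, 6.08 and 6.51, lowest in pigmented 2 like Mitf.

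**Figure D2:**
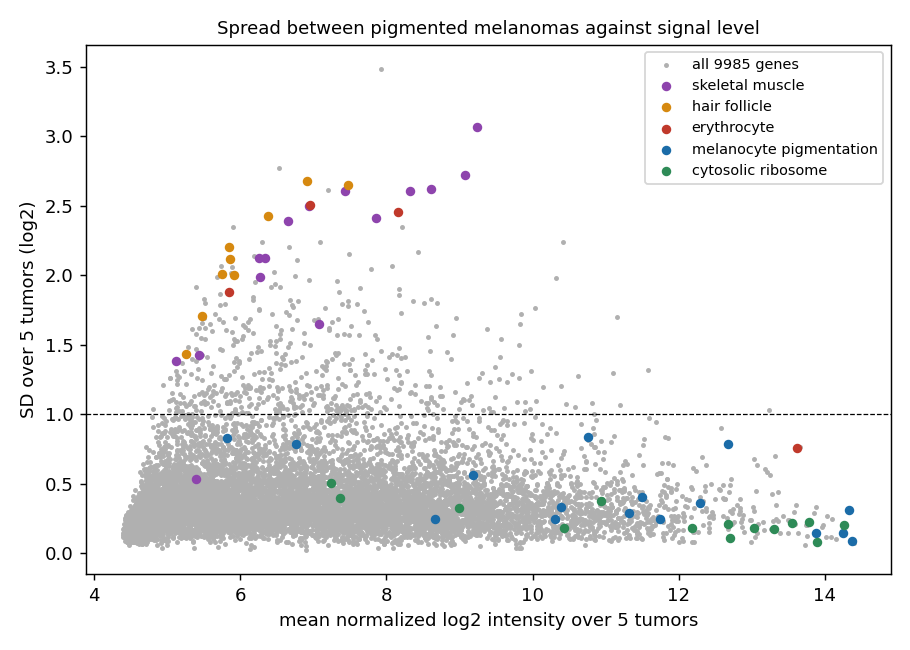
SD over the 5 tumors (y axis, log2) against mean normalized log2 intensity (x axis) for all 9985 genes (grey), with 5 gene lists in colour and a dashed line at an SD of 1. Of the muscle genes 14 of 15, of the hair follicle genes all 9 and of the red cell genes 3 of 4 lie above the line, and pigmentation and ribosome genes below it.

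At the variable end, 531 genes (5.32%) had an SD of at least 1, 38 of them at least 2. The median gene differed 1.81-fold between its highest and its lowest tumor. An SD of 1 was reached by 1.72% of the genes with means under 5.39, 8.73% of those from there to 6.71, 7.29% of those up to 8.29 and 3.53% of the brighter ones. Without background correction 171 genes reached it, and 349 with a detection p under 0.01 required on all arrays. A further 82 probes without a symbol also reached it.

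These variable genes were not spread evenly over the tumors. Pigmented 4 held the highest value of 298 of the 531 (56.1%), against 16.3% of all genes, and pigmented 5 held the lowest value of 188 (35.4%), against 17.4% of all genes. Pigmented 2 held the highest value of 94 (17.7%) and the lowest of 150 (28.2%), against 25.2% and 30.5% of all genes. Of 175 variable genes with a second detected probe, that probe put the same tumor highest in 151 (86.3%) and the same tumor lowest in 130 (74.3%), against 52.3% and 50.2% of 3614 less variable genes. The second probe itself reached an SD of 1 in 89 of the 175, with a median SD of 1 against 1.21 for the brightest probe.

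**Figure D3:**
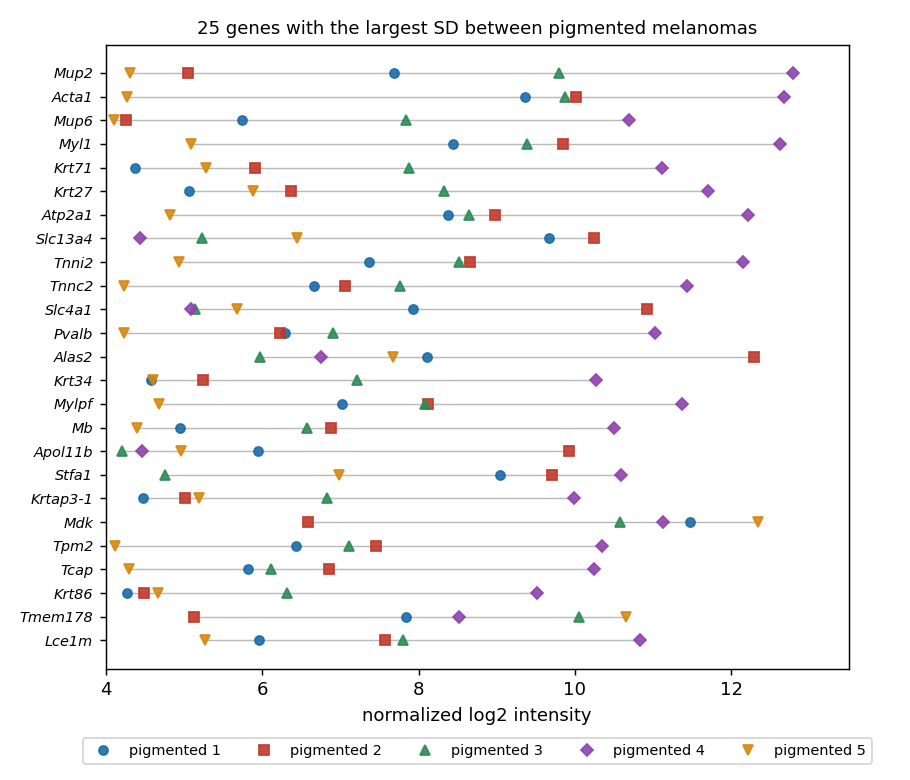
Normalized log2 intensity (x axis) of the 25 genes with the largest SD (rows, largest at the top) in the 5 tumors (1 symbol per tumor). Pigmented 4 is highest for 19 of the 25, pigmented 2 for 4 and pigmented 5 for 2.

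Genes set apart in a single tumor, at least 1 log2 unit beyond the next tumor, numbered 945, 638 above and 307 below. Pigmented 4 stood above the rest in 317 genes (3.17%) and below in 21 (0.210%). Pigmented 2 stood above in 223 (2.23%) and below in 181 (1.81%). The others had fewer, with 24 (0.240%) above and 26 (0.260%) below in pigmented 1, 53 (0.531%) and 33 (0.330%) in pigmented 3, and 21 (0.210%) and 46 (0.461%) in pigmented 5. Median scaling turned pigmented 1 from near balance to 117 above and 6 below, so its own direction is not settled. Leaving out pigmented 4 gave 150 above for pigmented 3 and 275 below for pigmented 2. Leaving out pigmented 1 gave 122 below for pigmented 5, and leaving out pigmented 5 gave 95 below for pigmented 1.

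Genes of skeletal muscle fibres had the largest median SD of the 29 lists, 2.39. Acta1, the actin of the muscle thin filament, whose start region is printed beside that of Mylpf, had 9.36, 10.01, 9.87, 12.68 and 4.27, the last not detected. Tnni2, a fast-fibre troponin, had 7.37, 8.66, 8.51, 12.14 and 4.93. Atp2a1, the calcium pump of the muscle reticulum, had 8.37, 8.98, 8.65, 12.21 and 4.82. Each was highest in pigmented 4 and lowest in pigmented 5. Pigmented 1 to 3 lay between, closer together for Acta1 and Atp2a1 than for Tnni2. Of 15 measured muscle genes, 14 were highest in pigmented 4 (16.3% of all genes) and 14 lowest in pigmented 5 (17.4% of all genes), and 14 had an SD of at least 1.

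In pigmented 4, Myl1, a myosin light chain, was 6.84-fold above the next tumor, Ckm, the muscle creatine kinase, 12.2-fold, and Pvalb, the calcium buffer parvalbumin, 17.5-fold. The second probe of Mylpf, another myosin light chain, gave 6.71, 7.61, 7.43, 11.34 and 4.51 beside 7.02, 8.12, 8.08, 11.37 and 4.68 for the first, the same order at both ends. The exception in the list was Tnnt1, the slow-fibre troponin T, at 6.25 in pigmented 5 and 4.87 to 5.53 in the others. The muscle list level was -0.72, 0.09, 0.02, 3.10 and -2.48, a range of 5.58, or of 2.54 without pigmented 4.

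Hair follicle keratins were highest in pigmented 4 too, but their second tumor was a different one. Krt71, an inner root sheath keratin, had 4.37, 5.91, 7.87, 11.11 and 5.28, and Krt27, its partner, had 5.07, 6.37, 8.33, 11.70 and 5.88. The cortex keratin Krt34 had 4.58, 5.24, 7.21, 10.27 and 4.60. Pigmented 3 came second for all 3 of these genes, and pigmented 1 was lowest. Of 17 listed hair follicle genes, 9 were measured. All 9 were highest in pigmented 4 (16.3% of all genes) and had an SD of at least 1 (5.32% of all genes). Their list levels were -1.61, -1.08, 0.51, 3.51 and -1.32.

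Epidermal genes followed pigmented 4 less uniformly. Krt10, a keratin of the differentiating epidermis, had 8.92, 11.90, 9.74, 12.86 and 8.20, and Lor, a protein of the cornified envelope, had 8.48, 10.92, 9.86, 12.57 and 8.36. Pigmented 4 was highest and pigmented 2 second for both. Krt16, a keratin of wounded and hyperproliferative epidermis, went another way with 9.22, 10.25, 4.76, 7.92 and 8.25. Sprr1b and Krt6b, of the same kind of epidermis, were likewise lowest in pigmented 3 and not detected there. Of 14 measured keratinocyte genes, 12 were highest in pigmented 4 (16.3% of all genes).

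Stroma and fat leaned the same way. Col3a1, a fibrillar collagen, had 6.42, 6.64, 8.71, 10.98 and 6.22, and Lum, the collagen-binding lumican, had 5.60, 5.96, 6.66, 9.21 and 5.02. Of the 16 measured matrix genes, 14 were highest in pigmented 4 (16.3% of all genes), and 11 were lowest in pigmented 5 (17.4% of all genes). Sparc, a matrix protein that melanoma cells also make, was an exception at 12.28, 12.97, 12.79, 12.48 and 11.35. Adipoq, the fat hormone adiponectin, had 6.26, 5.33, 8.04, 9.47 and 4.61. Of 13 listed fat cell genes, 8 were measured, and Fabp4 and Plin1 were among those below the detection rule. Of the 8, 6 were highest in pigmented 4 (16.3% of all genes), while Pparg was lowest there at 7.67.

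Myeloid and antigen-presentation genes were highest in pigmented 4 as well. All 16 measured macrophage genes had their highest value there (16.3% of all genes). The lysozyme Lyz2 had 8.42, 10.76, 9.20, 11.56 and 7.94, and the mannose receptor Mrc1 had 5.84, 7.34, 7.27, 8.63 and 5.40. H2-Ab1, an MHC class II chain, had 7.96, 7.28, 9.64, 10.92 and 8.37. Of the 7 class II genes, 6 were highest in pigmented 4 (16.3% of all genes) and 6 lowest in pigmented 2 (30.5% of all genes). Interferon response genes were mixed, with 4 of 10 measured genes highest in pigmented 4 (16.3% of all genes). Gbp2, an interferon-induced GTPase, had 9.52 there and 5.94 to 7.53 elsewhere, while Rsad2, an antiviral enzyme, had 9.20 in pigmented 2 and 5.21 to 6.76 elsewhere. Mast cell proteases such as Mcpt4, at 5.26, 5.33, 7.52, 8.17 and 4.94, were high in pigmented 3 and 4.

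T cell genes were mostly below the detection rule. Of 18 T and NK cell genes, 5 were measured, and Cd3d, Cd3e, Cd4 and Cd8a were detected on fewer than 3 arrays. Cd3g was close to background at 4.21 to 5.12. Cd8b1 at 9.14 to 9.69 and Foxp3 at 8.08 to 9.20 were bright although Cd3g was not.

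Mup2 had the largest SD of all, 3.49, at 7.68, 5.05, 9.80, 12.79 and 4.30. Mup6 had 5.74, 4.26, 7.84, 10.69 and 4.10. Mup2 was not detected in pigmented 5, nor Mup6 in pigmented 2 and 5. They encode major urinary proteins, secreted carriers of a family of near-identical genes, and the 2 probes may read the same RNAs. Pigmented 4 was highest and pigmented 5 lowest for both. The same held for 14 of the 15 measured skeletal muscle genes, while Tnnt1 ran the other way. Matrix and fat cell genes often had these ends too. Of them, 14 of 16 and 6 of 8 were highest in pigmented 4 (16.3% of all genes), and 11 of 16 and 6 of 8 lowest in pigmented 5 (17.4%). Pigmented 3 was second for Mup2 and Mup6, as for Adipoq, whereas pigmented 2 was second for Acta1. In all, 61 of the 317 genes set apart high in pigmented 4 belonged to the gene lists, which held 3.53% of all measured genes, 14 of them to muscle, 11 to matrix, 9 to hair follicle and 9 to keratinocytes. The pigmentation list level of that tumor was -0.19, the lowest of the 5, but few members were lowest there. Of its 16 measured genes, 2 were lowest in pigmented 4 (21.5% of all genes), 6 in pigmented 5 (17.4%) and 5 in pigmented 2 (30.5%). How far the share of tumor cells moves with these levels was not tested.

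**Figure D4:**
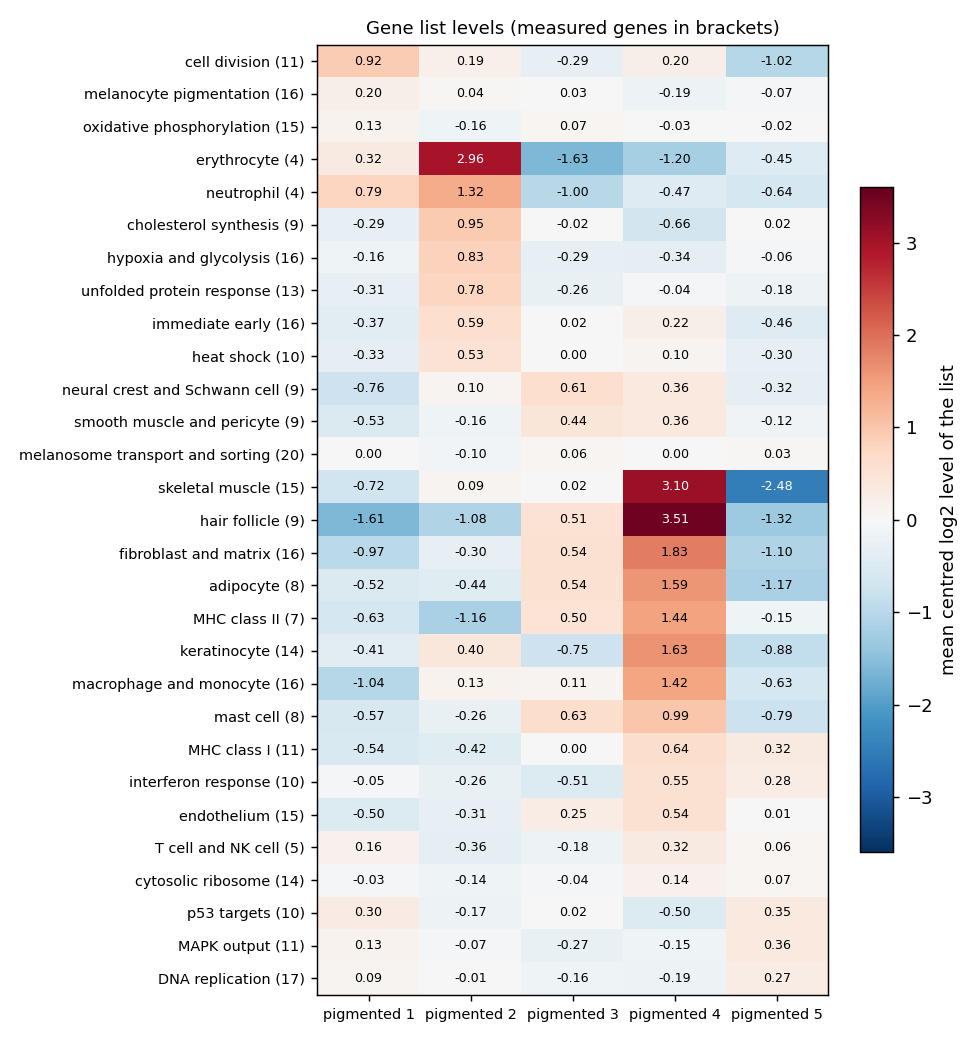
Mean centred log2 level of the 29 gene lists with at least 4 measured genes (rows, number measured in brackets, grouped by their highest tumor) in the 5 tumors (columns), red above and blue below the list's 5-tumor mean. Muscle (3.10) and hair follicle (3.51) peak in pigmented 4, red cells (2.96) in pigmented 2, and pigmentation and melanosome transport stay near 0 in all 5.

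Of the 223 genes set apart high in pigmented 2, 23 belonged to the gene lists, which held 3.53% of all measured genes. Of these 23, 4 belonged to cholesterol synthesis, 4 to hypoxia and glycolysis, 3 to red cells and 2 to the unfolded protein response. Alas2, the first enzyme of heme synthesis in red cell precursors, had 8.11, 12.30, 5.97, 6.76 and 7.67, 18.2-fold above the next tumor. Slc4a1, the anion exchanger of the red cell membrane, had 7.93, 10.92, 5.14, 5.08 and 5.68. Pigmented 1 was second for both. The globin probes differed among themselves: Hbb-bs and Hba-a1 were about as bright in pigmented 1, 2 and 5, while Hbb-b2, another adult beta-globin, had 9.11 in pigmented 2 and 4.54 to 5.58 elsewhere. S100a8, a calcium-binding protein of neutrophils and stressed epidermis, was high in pigmented 1 and 2, with 10.22, 10.43, 6.15, 7.80 and 7.95. The neutrophil list rested on 4 measured genes.

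Most measured genes of the hypoxia and glycolysis list were highest in pigmented 2. Vegfa, the vessel growth factor, had 6.88, 8.92, 6.04, 6.14 and 6.83, and Adm, the vasodilator adrenomedullin, had 7.67, 9.79, 6.95, 6.28 and 7.83. The glucose transporter Slc2a3, not a member of that list and named for its gap in pigmented 2, had 8.27 there and 5.56 to 5.63 in the others. Of 16 measured hypoxia and glycolysis genes, 11 were highest in pigmented 2 (25.2% of all genes), though Ndrg1 was about as high in pigmented 3 and 4, and Aldoa, at 12.02 to 12.45, hardly varied.

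Most genes of the unfolded protein response had their highest value in that tumor too. Trib3, a pseudokinase induced by endoplasmic reticulum stress, had 4.70, 7.42, 5.22, 5.01 and 5.36, and Dnajb9, an ER co-chaperone, had 7.66, 9.49, 7.45, 7.73 and 7.48. Of 13 genes, 10 were highest in pigmented 2 (25.2% of all genes). The heat shock list followed with 7 of 10, against the same 25.2%, led by Hspb1 at 9.39 in pigmented 2 and 6.58 to 8.37 elsewhere.

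Cholesterol synthesis was the most uniform of these groups, with all 9 measured genes highest in pigmented 2 (25.2% of all genes) and 8 lowest in pigmented 4 (21.5% of all genes). Sqle, the squalene epoxidase, had 9.27, 10.89, 9.56, 8.64 and 9.47, and Idi1, the isopentenyl isomerase, had 5.58, 7.21, 5.57, 5.49 and 5.39. The cholesterol list ranged over 1.61, the hypoxia list over 1.17 and the unfolded protein list over 1.09. Without pigmented 2 these ranges were 0.681, 0.278 and 0.268.

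Mdk, Irs2 and Grb10 were among the genes set apart low in pigmented 2. Mdk, the growth factor midkine, had 11.47, 6.58, 10.58, 11.13 and 12.35, and its second probe had 9.45, 5.17, 7.91, 8.59 and 10.03. Irs2, an insulin receptor substrate, had 8.95, 5.62, 8.46, 8.14 and 9.21, and Grb10, an adaptor that restrains the insulin receptor, had 9.24, 5.78, 9.20, 9.51 and 9.68. For all of them pigmented 2 lay below the other 4, which were closer together for Grb10 than for Irs2 or Mdk. Serpinb1a, an inhibitor of neutrophil proteases, and Prune2 were high in it, at 9.53 and 9.81, with 5.29 to 6.89 and 5.10 to 6.61 elsewhere.

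Ngfr, Tfap2b and Ptprz1, genes known from neural crest and glia, were among those set apart high in pigmented 3. Ngfr, the p75 neurotrophin receptor of neural crest cells, had 5.18, 4.57, 9.53, 6.20 and 5.54, 10.02-fold above the next tumor. Tfap2b, a neural crest transcription factor, had 7.07, 6.18, 10.32, 8.02 and 7.75, and Ptprz1, a receptor phosphatase of glia, had 4.42, 4.30, 7.38, 4.99 and 4.59. Olfm1, Tnfrsf19 and Egfl8 stood apart in the same tumor, at 11.93, 9.92 and 9.07. The neural crest and Schwann cell list, which holds Ngfr itself, had levels of -0.76, 0.10, 0.61, 0.36 and -0.32, highest in pigmented 3. Of its 9 measured genes, 2 were highest there (15.5% of all genes), 3 in pigmented 4 (16.3%) and 4 in pigmented 2 (25.2%), where Ncam1, a cell adhesion molecule, had 10.21. A further 6 listed genes fell below the detection rule. Pigmented 3 kept the highest list level in 11 of 13 alternatives that held it, and pigmented 2 or 4 had it otherwise. The list level without Ngfr was not computed. By their brightest probes, Dct and Tyrp1 were highest in pigmented 3, and Mlana and Ptgds were lowest there.

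Cell division genes ordered pigmented 1 and pigmented 5 at opposite ends. Plk1, a mitotic kinase, had 8.81, 7.66, 6.92, 7.37 and 5.70. Birc5, the mitotic survivin, had 8.38, 7.89, 6.96, 7.43 and 5.23, with 7.82, 7.42, 5.95, 6.61 and 4.62 by its second probe, the same order. Cenpa, the histone of the centromere, had 10.37, 9.12, 8.49, 9.47 and 7.25. Of 11 measured genes, 10 were highest in pigmented 1 (19.1% of all genes) and 10 lowest in pigmented 5 (17.4% of all genes).

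DNA replication genes did not share that order. Of 17 genes, 12 were highest in pigmented 5 (24.0% of all genes), with Mcm5, a subunit of the replicative helicase, at 9.52, 9.02, 9.29, 8.70 and 9.80, and the list spanned 0.46. Tk1, the thymidine kinase, sided with the division genes by its brightest probe, at 8.21, 7.35, 7.08, 7.60 and 6.74. Its dimmer second probe had 5.15, 4.98, 5.77, 4.84 and 4.70, also lowest in pigmented 5 but highest in pigmented 3. Cdk4, whose mutant allele all tumors carry, had 9.87, 8.88, 9.41, 9.21 and 9.89, and the array does not separate the alleles.

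Both Braf probes were detected on 0 of the 5 arrays, so its level has only a bound. Among targets of the MAPK pathway downstream of Braf, 0 of 11 had an SD of 1 or more. For so short a list this is near the 5.32% of all genes. Their median SD of 0.546 lay above the median of all genes, 0.347, and above their 75th percentile, 0.50. Phlda1 stayed at 12.05 to 12.26, while Ccnd1, cyclin D1, had 11.56, 13.01, 12.16, 10.74 and 11.76. Of the p53 targets, Bbc3, a pro-apoptotic factor, had 7.34, 5.58, 5.91, 5.78 and 7.99, high in pigmented 1 and 5, and Cdkn1a, the p21 inhibitor, had 10.87, 11.72, 10.71, 9.65 and 11.24, highest in pigmented 2.

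Single genes also marked pigmented 1 and 5. The POU factor Pou3f1 had 9.36 in pigmented 1 and 5.21 to 7.09 elsewhere, and Neat1, the RNA scaffold of paraspeckles, had 10.76 there and 8.06 to 9.26 elsewhere. Meis2, a homeobox factor, was low in pigmented 1 at 4.95, with 7.18 to 8.46 in the others. Ttr, the thyroxine carrier transthyretin, had 10.09 in pigmented 5 and 6.02 to 7.82 in the others.

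Slc13a4, a sulfate transporter, split the tumors otherwise, with 5.23, 4.44 and 6.45 in pigmented 3 to 5 and 9.66 and 10.24 in pigmented 1 and 2. That split matched the 2 chips, which held pigmented 3 to 5 (chip 2) and pigmented 1 and 2 (chip 1). Across all genes, limma found 0 of 9985 (0%) different between chips at an adjusted p under 0.05, and 620 (6.21%) had an unadjusted p under 0.05. For Slc13a4 the chip 2 mean was 5.37 and the chip 1 mean 9.95, a log2 difference of -4.58 ± 0.57 (SE, n = 3 and 2, limma adjusted p = 0.606). For S100a9 the means were 5.11 on chip 2 and 8.52 on chip 1, a log2 difference of -3.41 ± 0.43 (SE, limma adjusted p = 0.606). Each tumor lay on 1 chip, so chip and tumor cannot be told apart.

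**Figure D5:**
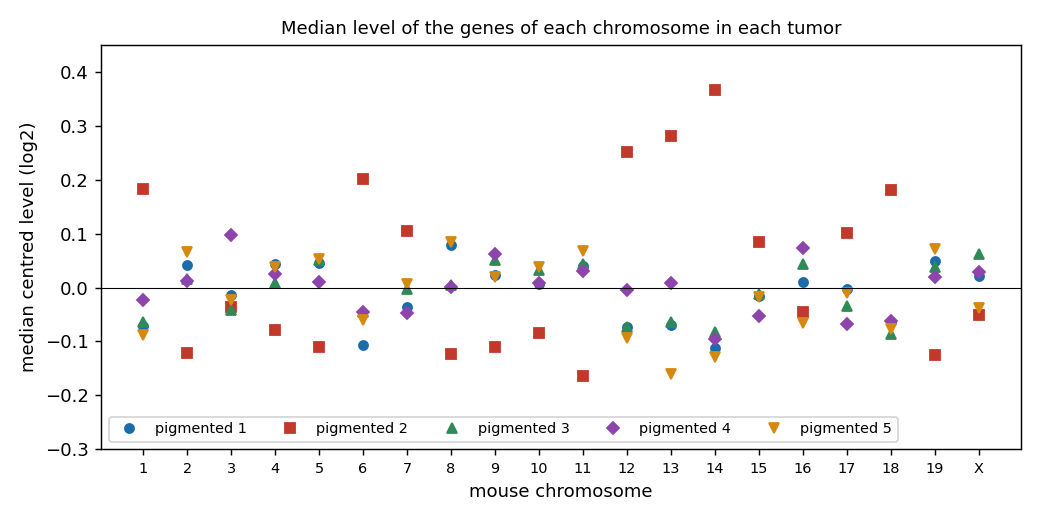
Median centred log2 level (y axis) of the measured genes of each mouse chromosome (x axis) in the 5 tumors (1 symbol per tumor). Pigmented 2 runs from -0.16 on chromosome 11 to 0.37 on chromosome 14, and the other 4 tumors lie between -0.16 and 0.10.

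Genes of several chromosomes deviated together in pigmented 2. A chromosome's level is the median deviation of its genes from their 5-tumor means, less the median over all genes of that tumor. The 352 measured genes of chromosome 14 had a level of 0.37 there, with 78.7% of them above the median deviation of all genes in that tumor. It was -0.11, -0.08, -0.095 and -0.13 in pigmented 1, 3, 4 and 5. The levels of pigmented 2 were also above 0 on chromosome 13 (0.28 over 348 genes), chromosome 12 (0.25 over 323) and chromosome 6 (0.20 over 502). Its lowest was -0.16, over 863 genes of chromosome 11. The level of chromosome 14 was 0.184 without background correction and 0.0692 without any detection filter.

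Chromosome levels were set beside gene density, with which they went to unlike degrees and in unlike directions. Over 20 chromosomes, the levels of pigmented 2 and the protein-coding genes per megabase had a Spearman's rho of -0.59, and those of the other tumors 0.55, 0.50, 0.12 and 0.76 in pigmented 1, 3, 4 and 5. These coefficients are descriptions, and centring over 5 tumors ties them together. Genes were then split by the protein-coding genes within 1 Mb on each side, a step chosen after seeing the data. Over all genes of pigmented 2, gene-sparse neighbourhoods had a median deviation of 0.0244 and gene-dense ones of -0.121. Measured against the genes of its own kind of neighbourhood, chromosome 14 had 0.33 over 209 gene-sparse and 0.37 over 136 gene-dense genes in that tumor. In the same order, chromosome 13 had 0.21 and 0.34, and chromosome 6 had 0.17 and 0.23. Chromosome 7, the most gene-dense at 14 per megabase, had 0.11 and 0.15. Chromosome 11 was below 0 in both, at -0.19 and -0.11, and chromosome 16 changed sign, at -0.09 and 0.01. What sets these chromosome levels was not tested.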

How the data were processed

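Per the file headers, every probe of the deposited scanner table comes with its mean bead intensity per array. Beside each intensity, per the same headers, stands a detection p-value. The authors also deposited a table of log2 values that they had normalized, a scale read from setting it against the intensities. How they normalized it, with which scanner software and on which build is not given in the sources used here, so that table served as an alternative only.

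The 5 pigmented arrays were processed alone with limma 3.58.1 in R 4.3.3: normexp background correction from the detection p-values (offset 16), quantile normalization and log2. A probe needed a detection p-value under 0.05 on 3 or more arrays, and the brightest probe stood for each symbol. Of 45281 probes, 34885 had 1 symbol, 18 several and 10378 none. Of the named probes, 34807 were matched to RefSeq (GRCm38.p6) by Entrez identifier, and 0 symbols changed. Promoter sequences are RefSeq's. The offset compresses folds of dim genes.

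The study gives no repeat of a tumor, so spread was described by the SD over the 5 tumors, by gaps to the next tumor and by mean centred levels of 36 gene lists, 29 of which had at least 4 measured genes. With 5 tumors, no correlation between lists was computed. For the 2 chips, limma's lmFit and eBayes were run on all 9985 genes with Benjamini-Hochberg adjustment. The script was tested on simulated data, which do not show what the test could detect in these tumors. Replicate numbers are names only. The number of arrays limits the precision.

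Named genes are markers of the model and of sex, the genes of the 30 brightest probes, the 25 with the largest and the 15 with the smallest SD, up to 8 above and 5 below per tumor, and the widest 5 and narrowest 2 of each list. Other list members named in the text illustrate their list. Members, lists and rules were chosen with earlier results of these data known. Alternatives were no or another background correction, cyclic loess, median scaling, the authors' values, all 10 arrays normalized together, no filter, a strict filter (p-value under 0.01 on all 5 arrays), averaging a gene's probes, other chip models and leaving out each tumor. Python 3.11.15 with matplotlib 3.10.9 drew the figures.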

Additional observations from a re-analysis of the deposited data

Results flagged for a closer look

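In 4 of 64 results examined (29 list levels and 35 genes), 1 tumor stood so far from the other 4 that its gap to the nearest, divided by the whole range, passed 0.71, the critical value of Dixon's test for 5 samples. Chance flags about 5% of groups, so a number like this is near what chance gives, and single results should be read with that in mind.

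Tyr was high in pigmented 1, with 9.11 there and 8.58, 8.57, 8.57 and 8.50 in pigmented 2 to 5 (ratio 0.872). Pmel was low in pigmented 2, with 14.53, 13.78, 14.38, 14.42 and 14.53 in pigmented 1 to 5 (ratio 0.797), and its second probe was lowest in the same tumor at 13.04.

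The hypoxia and glycolysis list was high in pigmented 2, with levels of -0.16, 0.83, -0.29, -0.34 and -0.06 (ratio 0.762). The unfolded protein response list was high in the same tumor, with -0.31, 0.78, -0.26, -0.04 and -0.18 (ratio 0.755). Neutrophil, red cell and cholesterol synthesis lists were also highest there, at 1.32, 2.96 and 0.95, and their part in these levels was not tested.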

How the results depend on the processing

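No paired analysis was possible because the tumors form 1 group and replicate numbers are names only. Variable genes numbered 531, 171 without background correction and 349 with the strict detection filter, 438 to 667 under the other changes of processing, and 405 to 608 with a tumor left out. Steady genes numbered 78, but 127 without background correction, 11 under median scaling (1 of the 78), 25 in the authors' values (0 of the 78) and 126 to 246 with a tumor left out, where fewer values enter each SD. Genes set apart in 1 tumor numbered 945, 405 without background correction, 641 to 1089 under the other changes and 719 to 1138 with a tumor left out. Lists with a range of at least 1 numbered 19, 11 without background correction and 14 to 19 with a tumor left out. The largest chromosome level was 0.37, on chromosome 14 in pigmented 2, 0.184 without background correction and 0.0692 with no detection filter. With a tumor left out it ran from -0.0857, on chromosome 16 in pigmented 5 once pigmented 2 was gone, to 0.37. Why these values moved was not tested.

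The chip comparison gave 0 genes in limma under every alternative run, with 355 to 1403 at an unadjusted p under 0.05. The skeletal muscle, keratinocyte, macrophage, cell division, cholesterol, hypoxia and unfolded protein lists kept their highest tumor in 13 of 13 alternatives that held it, and the pigmentation list in 12 of 13. For single-gene SDs the limit was a change smaller than the main SD, so no fall could count as moved. By that limit 463 stayed and 4 moved, which does not show that large SDs held. For Mdk the lowest SD among the alternatives was 0.740, against 2.24. Of list ranges 365 stayed and 28 moved, and of counts set apart per tumor 90 stayed and 40 moved. Probes near background limit what can be said of dim genes, and nothing here separates cell number from RNA per cell.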

Other observations

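Sex-linked transcripts differed between the tumors, which the labels do not sort by sex. Xist, the RNA of the inactive X chromosome, was below the detection rule because it was detected on 2 arrays only. Its brightest probe had 9.70, 4.21, 8.995, 4.23 and 4.24 in pigmented 1 to 5, and all 4 Xist probes were detected in pigmented 1 and 3 alone. A probe of the Y-linked Eif2s3y had 8.02 and 7.97 in pigmented 4 and 5 and 4.14 to 4.45 in the others. The Y-linked Kdm5d had 4.19, 5.23, 4.57, 5.62 and 5.32, and its second probe was detected on 0 arrays. The first Kdm5d probe was detected in pigmented 2 to 5, including pigmented 3, in which Xist was detected, and a probe of the Y-linked Uty was detected in pigmented 2, 3 and 4 at 4.59 to 4.72. The dim Kdm5d and Uty signals therefore do not sort the tumors. The brighter signals of Xist, in pigmented 1 and 3, and of Eif2s3y, in pigmented 4 and 5, did not occur together in any tumor. In pigmented 2 neither Xist nor Eif2s3y was detected.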
